A study of Mus musculus with 6 samples.

Results

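The 33 genes described here encode the enzymes that make cholesterol, the fatty acids and the sphingolipids of myelin, together with the regulators of sterol synthesis. They were chosen by gene name from the 54532 rows of a count table of sciatic nerves at postnatal day 3 (P3), and all 33 had a row and passed the filter on low counts. The list holds 7 genes of the early mevalonate pathway, 11 genes of the steps from squalene to cholesterol, 5 regulators of the sterol-sensing SREBP system, 6 genes of fatty acid synthesis and 4 genes of myelin sphingolipid synthesis. Nerves of 3 wild-type control mice were compared with nerves of 3 Dok6 mutant mice, all at P3, and no drug is named in the labels. Per the study's methods, mutant mice arose from floxed Dok6 exon 3 and the early embryonic EIIA-Cre, so the deletion is not limited to one cell type, and controls were littermates on a C57BL/6 background, with the sexes not distinguished. Each library carries the number of 1 mouse in its label.

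In the nerves of Dok6 mutant mice, 16 of the 33 genes rose and 0 fell at an adjusted p-value under 0.05 by the quasi-likelihood test of edgeR, with Benjamini-Hochberg adjustment over all genes tested. The background was 8.62% of the 17099 tested genes higher and 6.01% lower. The median log2 fold change of the 33 genes was 0.53, a 1.45-fold difference, while the median over all tested genes was 0.01. Of the 33 log2 fold changes, 32 were above zero. Of the 16 genes, 10 were among the 18 sterol enzymes, 5 among the 6 fatty acid genes and 1 among the 5 regulators, and none of the 4 sphingolipid genes passed the test. At an unadjusted p-value under 0.05, 22 genes were higher and 0 were lower, against 18% and 15.5% of all tested genes, and DESeq2 and limma voom called 18 and 15 genes higher, against 10.3% and 7.86% of all genes in those fits, and 0 lower. In a bulk nerve, more cells of a type and more RNA per cell cannot be told apart.

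The calls were sensitive to single animals. Without control mouse 2, 0 of the 33 genes passed, and the share of all genes called higher fell to 0.318%. In that fit, 19 genes were higher at an unadjusted p-value under 0.05, against 13.1% of all genes, and all 33 log2 fold changes were above zero, and the lowest adjusted p-value among them was 0.0504, for Mvd. Without control mouse 1, 7 genes passed, against 5.56% of all genes called higher. Without mutant mouse 1, 7 genes passed, against 3.99%, and without mutant mouse 2, 6 passed, against 3.16%. Leaving out control mouse 3 and mutant mouse 2 together, an alternative chosen after seeing the data, left 7 genes, against 2.2%. Mvd, Idi1, Fdft1, Sqle and Dhcr7 had an adjusted p-value under 0.05 under 13 of the 14 alternative settings, the exception being the fit without control mouse 2.

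Cholesterol is a main lipid of myelin and is made largely within the nerve itself. Acetyl-CoA is turned through mevalonate into isoprenoid units, farnesyl groups are joined in pairs and oxidised to squalene epoxide, and cyclisation and a series of demethylation and reduction steps give cholesterol. SREBP transcription factors, held in the endoplasmic reticulum by SCAP and INSIG proteins when sterol is plentiful, drive these genes when sterol is low, SREBP2 mainly those of cholesterol and SREBP1 mainly those of fatty acids. Schwann cells and oligodendrocytes also use very long fatty acids to build galactosylceramide and sulfatide, glycolipids that are characteristic of myelin.

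SREBP proteins act on promoters together with the factors NF-Y and Sp1, so the promoters of the genes were read for 3 motifs. RefSeq promoters of build GRCm38.p6, from 250 bases before to 50 bases after a transcript start, were matched for 27 of the 33 genes. The NF-Y box CCAAT, searched on both strands, was in a promoter of 22 of the 27 genes (81.5%), against 41.1% of all genes with a promoter and 42.3% of protein-coding genes. The Sp1 box GGGCGG was also in 22 of the 27 (81.5%), against 38.2% of all genes and 49.2% of protein-coding genes. A sterol regulatory element spelled TCACNCCAC was in 1 of the 27, Hmgcs1, against 1.44% of all genes. These shares are a description of letters in a fixed window, and genes with several promoters had more chances to hold a motif. The 250 bases before the transcript start are printed for Hmgcs1 because it alone held the sterol element, for Idi1 and Msmo1 because they had the largest increases among sterol enzymes, and for Ugt8a as a myelin glycolipid gene without a CCAAT in its window. Capitals mark CCAAT or its reverse complement ATTGG and the sterol element.
Hmgcs1, chr13:119690101-119690350, forward strand: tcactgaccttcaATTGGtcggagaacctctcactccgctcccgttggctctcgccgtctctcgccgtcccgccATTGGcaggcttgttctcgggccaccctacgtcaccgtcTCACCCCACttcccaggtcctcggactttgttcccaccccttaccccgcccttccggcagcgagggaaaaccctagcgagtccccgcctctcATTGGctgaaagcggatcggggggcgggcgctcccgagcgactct
Idi1, chr13:8885356-8885605, forward strand: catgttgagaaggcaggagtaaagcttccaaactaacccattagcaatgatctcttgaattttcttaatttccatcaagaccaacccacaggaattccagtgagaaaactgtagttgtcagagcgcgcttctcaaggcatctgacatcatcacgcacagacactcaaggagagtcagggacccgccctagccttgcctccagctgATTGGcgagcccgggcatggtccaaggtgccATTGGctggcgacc
Msmo1, chr8:64733579-64733828, reverse strand: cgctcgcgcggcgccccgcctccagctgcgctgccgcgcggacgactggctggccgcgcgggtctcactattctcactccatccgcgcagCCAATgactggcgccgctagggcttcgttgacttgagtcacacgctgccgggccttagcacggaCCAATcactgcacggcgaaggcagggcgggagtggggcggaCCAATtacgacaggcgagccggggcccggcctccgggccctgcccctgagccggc
Ugt8a, chr3:125938653-125938902, reverse strand: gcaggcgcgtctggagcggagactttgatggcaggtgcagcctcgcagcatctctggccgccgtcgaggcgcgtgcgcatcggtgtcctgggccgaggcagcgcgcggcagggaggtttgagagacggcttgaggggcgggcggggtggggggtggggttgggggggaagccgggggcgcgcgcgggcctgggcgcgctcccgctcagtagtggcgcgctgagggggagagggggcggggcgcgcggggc
The upstream stretch of Hmgcs1 held 3 CCAAT boxes besides the sterol element, that of Idi1 held 2 and that of Msmo1 held 3.

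The libraries held between 17699904 and 18678170 counts, and levels are given as CPM, the counts of a gene per 1000000 counts of the library after TMM scaling, for mice 1, 2 and 3 of each genotype in turn. A total of 3 counts, taken as the floor of detection, equalled between 0.156 and 0.172 CPM and covers counting error only. The targeted gene Dok6 was at 17.9, 11.9 and 17.5 CPM in control mice and at 7.26, 5.78 and 7.15 CPM in mutant mice (log2 fold change -1.23 ± 0.20 SE, adjusted p = 0.0118), a count that covers the whole gene and not the deleted exon alone. Markers of the central nervous system were present in all 6 libraries labelled sciatic nerve, where oligodendrocyte markers summed to between 488 and 1170 CPM and central neuron markers to between 1365 and 1934 CPM. The part that differences in tissue composition have in the results on lipid genes was not tested.

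**Figure D1:**
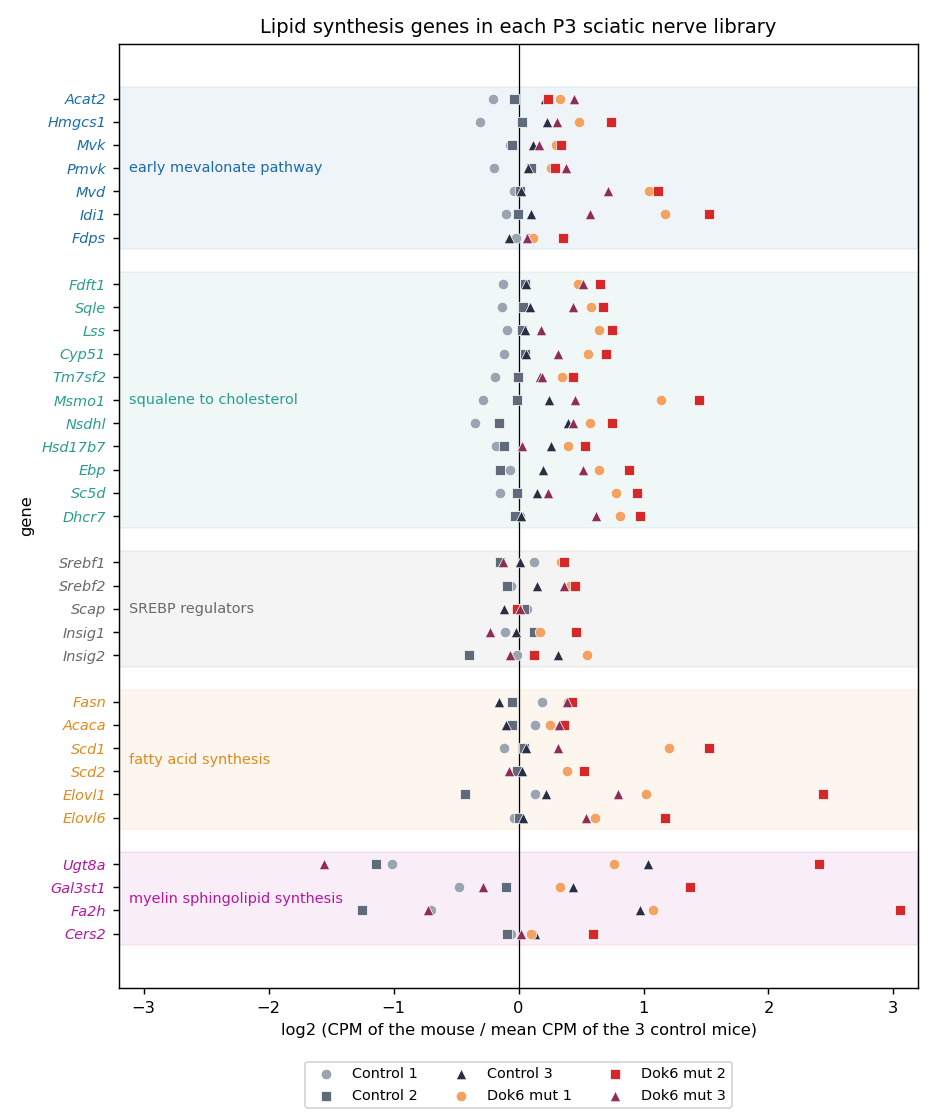
Level of each of the 33 genes in each mouse, as the log2 ratio of its CPM to the mean of the 3 control mice (horizontal axis), with genes on the vertical axis shaded by role and 1 symbol per mouse. Mutant mice sit to the right of all control mice for 22 genes, whereas Ugt8a and Fa2h at the bottom spread widely in both genotypes.

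In the early mevalonate pathway, 2 of 7 genes rose and 5 did not pass the test. In build mm10, Idi1 lies at chr13:8885501-8892451 and Mvd at chr8:122433601-122443422. Idi1, which isomerises the isoprenoid unit, was at 21.6, 23.1 and 24.9 CPM in control mice and at 52.3, 66.8 and 34.5 CPM in mutant mice, a 2.21-fold increase (log2 fold change 1.14 ± 0.21 SE, adjusted p = 0.0161). The lowest mutant value, from mouse 3, was still above the highest control value. Mvd, the decarboxylase that makes the isoprenoid unit, was at 30.5, 31.6 and 31.7 CPM in control mice and rose to 64.5, 67.7 and 51.3 CPM (log2 fold change 0.97 ± 0.12 SE, adjusted p = 0.00668). Its control mice lay close together, and the lowest mutant mouse was 1.62 times the highest of them. Hmgcs1, the HMG-CoA synthase, was at 340.2, 429 and 492 CPM against 589, 700.4 and 520.3 CPM, and the genotypes did not overlap although the test was not passed (log2 fold change 0.52 ± 0.16 SE, adjusted p = 0.0552).

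The remaining enzymes of this stretch had smaller differences. Acat2, Mvk and Pmvk had log2 fold changes of 0.34, 0.27 and 0.31, with no overlap of the genotypes and adjusted p-values of 0.0745, 0.0791 and 0.0780. Fdps, the farnesyl diphosphate synthase, was the only gene of the 7 whose genotypes overlapped (log2 fold change 0.19 ± 0.17 SE, adjusted p = 0.466). Fdps shares near-identical sequence with 5 other annotated genes, so its level is uncertain. Acat2, Hmgcs1, Idi1, Fdft1, Scap, Acaca, Scd2 and Elovl6 also share near-identical sequence with at least 1 other gene, exons of 4 of the 33 genes overlap a gene on the same strand and those of 10 a gene on the other strand, and whether counting used strand is not stated. Summed over the 7 genes, the level was 571, 683 and 771 CPM in control mice and 952, 1078 and 861 CPM in mutant mice.

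From squalene to cholesterol, 8 of 11 enzymes rose, with log2 fold changes from 0.53 to 1.07 among those that passed. Msmo1, the sterol methyl oxidase, had the largest difference, from 34.7, 41.96 and 50.2 CPM in control mice to 93.1, 115 and 57.9 CPM in mutant mice (log2 fold change 1.07 ± 0.24 SE, adjusted p = 0.0247). Mutant mouse 3 was the lowest of its genotype and was 1.15 times control mouse 3, the highest control. Dhcr7, which catalyses the last reduction to cholesterol, was at 43.8, 42.6 and 44.2 CPM in control mice and 76.6, 85.2 and 66.9 CPM in mutant mice (log2 fold change 0.81 ± 0.10 SE, adjusted p = 0.00716). Here the gap between the genotypes was clear, since the lowest mutant mouse was 1.51 times the highest control mouse.

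The first enzymes of this stretch moved with little spread among mice. Fdft1, the squalene synthase, rose from 81.9, 92.5 and 93.2 CPM to 124, 140.3 and 128 CPM (log2 fold change 0.55 ± 0.09 SE, adjusted p = 0.0111). Sqle, the squalene epoxidase and a rate-limiting enzyme, rose from 107, 120.3 and 125 CPM to 176, 188 and 159 CPM (log2 fold change 0.57 ± 0.09 SE, adjusted p = 0.0122). Both genes had a smaller spread among mutant mice, 1.13 and 1.18 times from lowest to highest, than the difference between the genotypes. Lss, the cyclase that makes lanosterol, was at 65.5, 71.3 and 72.5 CPM in control mice and 109, 117 and 78.9 CPM in mutant mice (log2 fold change 0.54 ± 0.14 SE, adjusted p = 0.0369). Cyp51, the lanosterol demethylase, was at 136, 153 and 153 CPM and 216, 239 and 184 CPM in the same order (log2 fold change 0.53 ± 0.11 SE, adjusted p = 0.0199). For Lss, mutant mouse 3 stood near the controls, while mutant mice 1 and 2 were well above them.

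Among the later isomerase and desaturase steps, Ebp, the sterol isomerase, rose from 9.35, 8.83 and 11.2 CPM to 15.3, 18.1 and 14.04 CPM (log2 fold change 0.69 ± 0.16 SE, adjusted p = 0.0269). Sc5d, the desaturase before Dhcr7, rose from 40.4, 44.4 and 49.9 CPM to 76.9, 86.5 and 52.9 CPM (log2 fold change 0.68 ± 0.17 SE, adjusted p = 0.0353). Neither gene had overlapping genotypes, and the mutant mice ranked 2, 1 and 3 from highest to lowest in both. Nsdhl, which acts with Msmo1 in removing methyl groups, was at 26.1, 29.9 and 43.9 CPM against 49.3, 55.9 and 45.1 CPM and did not pass the test (log2 fold change 0.59 ± 0.19 SE, adjusted p = 0.0640). Control mouse 3 was nearly as high as mutant mouse 3 for Nsdhl, and the gene passed without control mouse 3 at an adjusted p-value of 0.0215. Tm7sf2 and Hsd17b7, a reductase and a ketoreductase of the pathway, had log2 fold changes of 0.33 and 0.33 with adjusted p-values of 0.0937 and 0.185, and of these only Hsd17b7 had overlapping genotypes.

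**Figure D2:**
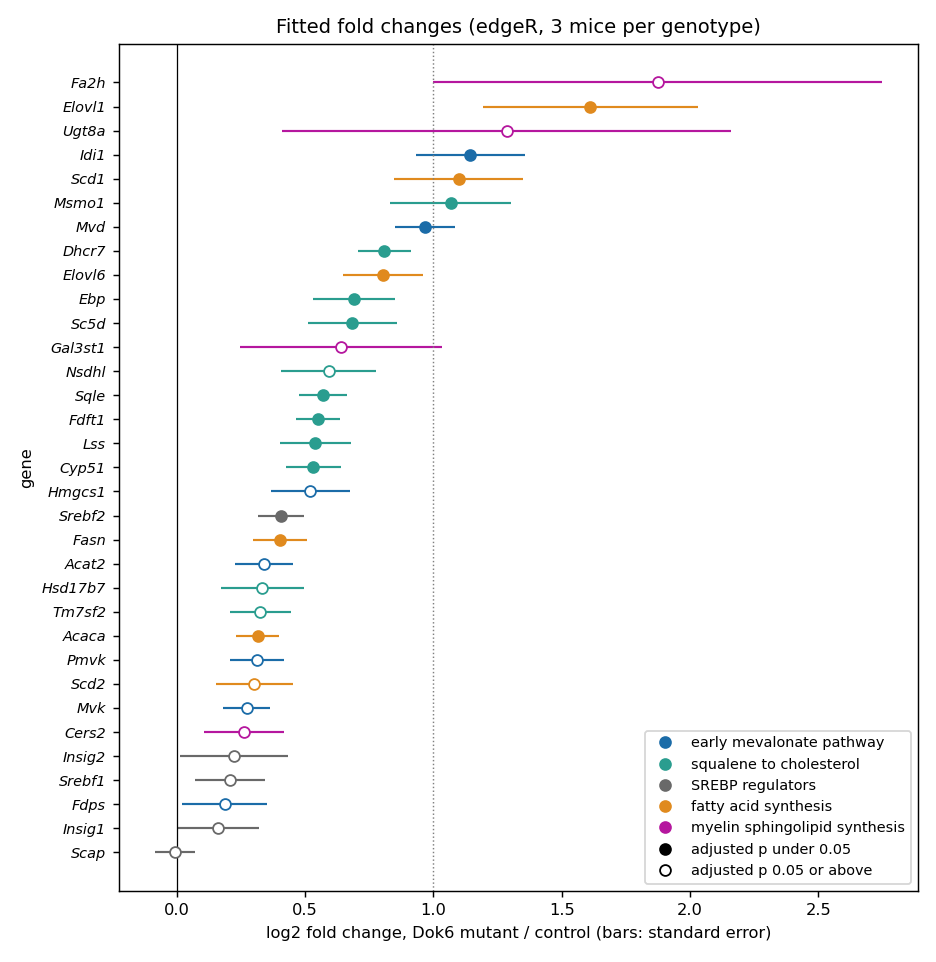
Fitted log2 fold change of mutant over control for each of the 33 genes (horizontal axis, bars are the standard error from 3 mice per genotype), ordered by size and coloured by role. Filled points passed the test, and the widest bars belong to Ugt8a and Fa2h, which have large fold changes and did not pass.

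Only 1 of the 5 regulators rose. Srebf2, which encodes SREBP2, was at 245, 240.0 and 284 CPM in control mice and 340.3, 350.0 and 329 CPM in mutant mice (log2 fold change 0.41 ± 0.09 SE, adjusted p = 0.0245). Its 3 mutant mice lay within 1.06 times of each other and above all control mice. Srebf1, which encodes SREBP1, was at 119, 98.03 and 109.6 CPM and 138, 139.5 and 99.5 CPM (log2 fold change 0.21 ± 0.14 SE, adjusted p = 0.319), and mutant mouse 3 fell among the controls. Scap, the sterol-sensing escort of SREBP, was at 114, 113 and 100.2 CPM and 108, 108 and 109.8 CPM (log2 fold change -0.01 ± 0.08 SE, adjusted p = 0.957), and its fitted sign changed with the filter and with the mice included.

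Insig1, a retention factor that is itself an SREBP target, was at 87.2, 102 and 92.4 CPM in control mice and 106, 129 and 80.3 CPM in mutant mice (log2 fold change 0.16 ± 0.16 SE, adjusted p = 0.502). Mutant mouse 2 was the highest of all 6 and mutant mouse 3 the lowest, and without mutant mouse 2 the log2 fold change was -0.01. Insig2 was at 21.9, 16.8 and 27.6 CPM and 32.2, 24.1 and 21.04 CPM (log2 fold change 0.22 ± 0.21 SE, adjusted p = 0.488), and the ranges of the genotypes overlapped in part.

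In fatty acid synthesis, 5 of 6 genes rose. Elovl1, which elongates very long saturated fatty acids, rose from 10.3, 6.99 and 10.9 CPM to 19.04, 50.9 and 16.3 CPM (log2 fold change 1.61 ± 0.42 SE, adjusted p = 0.0376). Mutant mouse 2 stood well above the other two, and the log2 fold change without it was 0.91 with an adjusted p-value of 0.0548. Scd1, a stearoyl-CoA desaturase, was at 77.4, 86.4 and 87.2 CPM in control mice and 192, 241 and 104 CPM in mutant mice (log2 fold change 1.10 ± 0.25 SE, adjusted p = 0.0268). Without mutant mouse 2 its log2 fold change was 0.83 with an adjusted p-value of 0.0685. Elovl6, which extends palmitate to stearate, rose from 67.3, 69.1 and 70.9 CPM to 106, 156 and 101 CPM (log2 fold change 0.80 ± 0.16 SE, adjusted p = 0.0184), and it passed with and without mutant mouse 2.

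The enzymes that begin fatty acid synthesis had small and even increases. Fasn, the fatty acid synthase, was at 655, 555 and 515 CPM in control mice and 757, 774 and 751 CPM in mutant mice (log2 fold change 0.40 ± 0.11 SE, adjusted p = 0.0378). The mutant mice lay within 1.03 times of each other, closer than the control mice at 1.27 times. Acaca, the acetyl-CoA carboxylase, was at 146, 129 and 124 CPM and 159, 171 and 167 CPM (log2 fold change 0.32 ± 0.08 SE, adjusted p = 0.0397). Among controls, Fasn and Acaca were highest in mouse 1, whereas 16 of the 18 sterol enzymes were highest in mouse 3. Scd2, the desaturase that prevails in nervous tissue, was at 2081, 2094 and 2154 CPM and 2768, 3033 and 2003 CPM and did not pass (log2 fold change 0.30 ± 0.15 SE, adjusted p = 0.195), with mutant mouse 3 below all controls. Per kilobase of gene length, Scd2 was the most abundant of the 33 genes in control nerves at 387 CPM per kilobase, followed by Hmgcs1 at 91.5 and Fasn at 52.6. Scd2 carries a stretch of near-identical sequence to Scd1, so reads may have been divided between the pair.

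None of the 4 sphingolipid genes passed the test, although Fa2h had the largest fitted fold change of the 33 genes. Ugt8a, which makes galactosylceramide, was at 14.6, 13.3 and 60.1 CPM in control mice and 49.7, 155 and 9.96 CPM in mutant mice (log2 fold change 1.29 ± 0.88 SE, adjusted p = 0.338). The highest mutant mouse was 15.6 times the lowest, control mouse 3 was above mutant mouse 1, and mutant mouse 3 was the lowest of all 6. Without mutant mouse 2 the log2 fold change of Ugt8a was 0.03. Fa2h, which hydroxylates the fatty acids of these lipids, was at 4.19, 2.87 and 13.4 CPM and 14.3, 56.6 and 4.13 CPM (log2 fold change 1.87 ± 0.87 SE, adjusted p = 0.170), a spread of 13.7 times among mutant mice. With no filter on low counts, Fa2h had an adjusted p-value of 0.0377, whereas without mutant mouse 2 its log2 fold change was 0.44 with an adjusted p-value of 0.716.

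Gal3st1, which adds the sulfate of sulfatide, was at 14.7, 18.98 and 27.5 CPM in control mice and 25.7, 52.9 and 16.7 CPM in mutant mice (log2 fold change 0.64 ± 0.39 SE, adjusted p = 0.288), and without mutant mouse 2 its log2 fold change was 0.06. Without control mouse 3 the log2 fold changes of Ugt8a, Fa2h and Gal3st1 were larger, at 2.36, 2.83 and 0.92, and none passed the test. Cers2, the ceramide synthase for very long acyl chains, varied least of the 4 genes, with a log2 fold change of 0.26 and an adjusted p-value of 0.275. For Ugt8a, Fa2h and Gal3st1 alike, the 3 highest mice were mutant mice 1 and 2 and control mouse 3. Ugt8a ranked the 6 mice in the same order as Mag and Mobp, with mutant mouse 2 first, then control mouse 3, mutant mouse 1, control mice 1 and 2, and mutant mouse 3 last. Mag, an adhesion protein of myelin, was at 11.7, 8.26 and 99.1 CPM in control mice and 59.9, 181 and 6.89 CPM in mutant mice (log2 fold change 1.06 ± 1.11 SE, adjusted p = 0.537). Mobp, a protein of oligodendrocyte myelin, was at 4.76, 4.76 and 93.4 CPM and 57.6, 155 and 1.91 CPM (log2 fold change 1.06 ± 1.33 SE, adjusted p = 0.611).

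**Figure D3:**
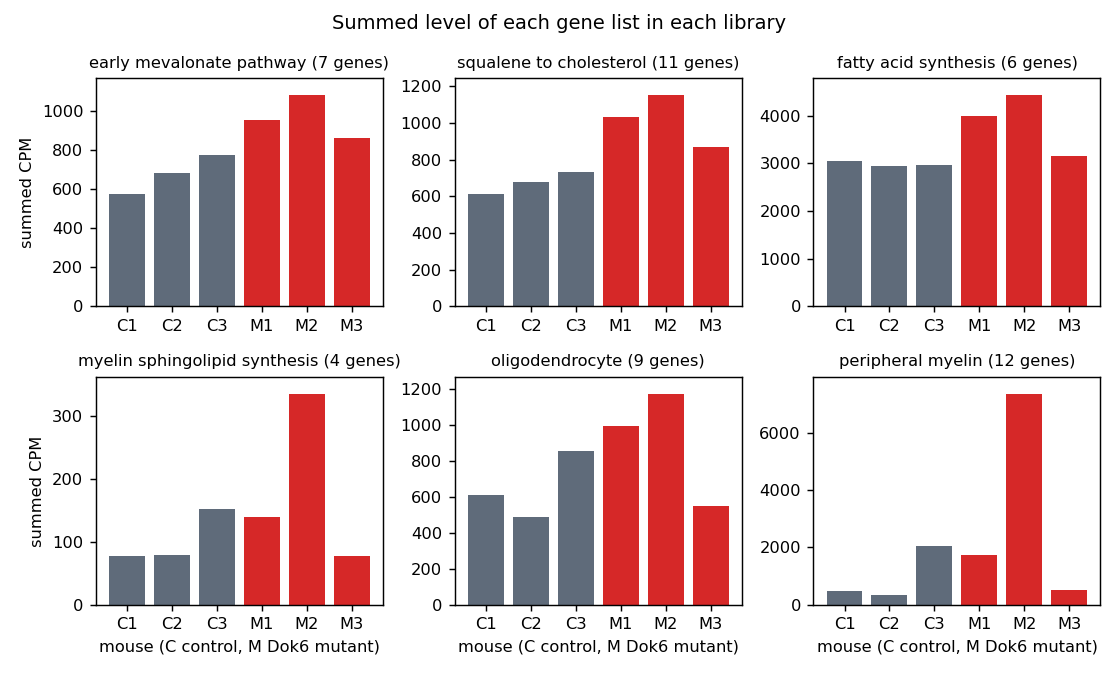
Summed CPM of 4 groups of lipid genes and 2 marker lists in each mouse (vertical axes start at 0 and differ between panels). The 2 sterol groups are higher in all 3 mutant mice. In the sphingolipid, oligodendrocyte and peripheral myelin panels the 3 highest bars are those of control mouse 3 and mutant mice 1 and 2.

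Mutant mice differed among themselves in a repeated order. Mutant mouse 2 was the highest of its genotype for 29 of the 33 genes, and mutant mouse 3 was the lowest for 28. Among controls, mouse 3 was the highest for 26 genes and mouse 1 the lowest for 20. The order of mutant mice 2, 1 and 3, all above the controls, held for 18 genes, 13 of them sterol enzymes. These genes share 6 libraries, so the counts are not independent. The shares of all tested genes with these orders were not computed, so the orders cannot be called particular to lipid genes. Of the 60 other pathway genes tested, mutant mouse 2 was the highest mutant for 25 and mutant mouse 3 the lowest for 33. Mutant mouse 2 was also highest for 10 of 11 peripheral myelin and 6 of 6 proliferation markers, but for 5 of 10 DRG neuron and 0 of 7 endothelial markers. The median spread from the lowest to the highest mutant mouse was 1.28 times for the 18 sterol enzymes, 1.53 times for the fatty acid genes and 8.43 times for the sphingolipid genes, against 1.25 times over all tested genes.

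The genotypes did not overlap, with mutants higher, for 22 of the 33 genes, against 19.6% of all tested genes. By role this held for 16 of 18 sterol enzymes, 5 of 6 fatty acid genes, 1 of 5 regulators and 0 of 4 sphingolipid genes. The ratio of the means exceeded the spread among mutant mice for 18 of the 33 genes, against 21.5% of all tested genes. With a log2 fold change above 1 also required, 4 genes passed (Idi1, Msmo1, Scd1 and Elovl1), against 3.58% of all tested genes. No fitted log2 fold change of the 33 genes reached 2, so 0 genes passed at that size, against 1.19% of all tested genes in either direction, and the count was 0 by DESeq2 and limma voom as well.

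**Figure D4:**
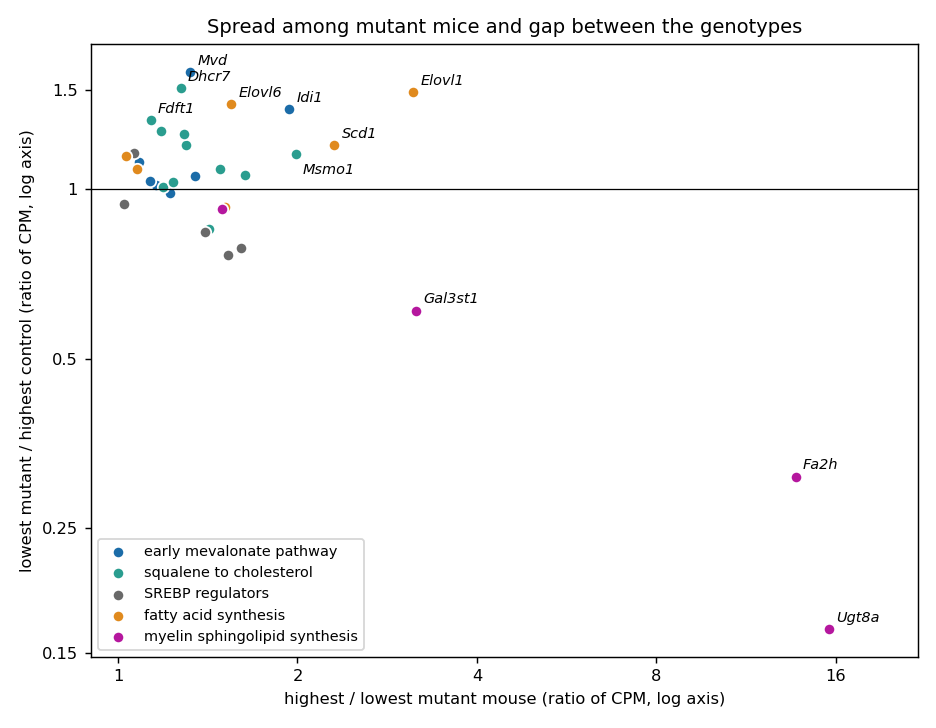
Spread among mutant mice (horizontal axis, highest over lowest CPM) against the gap between genotypes (vertical axis, lowest mutant over highest control) for each of the 33 genes on log axes, where points above 1 have no overlap. Mvd and Dhcr7 combine a gap of 1.62 and 1.51 with a spread of 1.32 and 1.27, and Ugt8a and Fa2h have the widest spread and the deepest overlap.

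The libraries also differed in markers of cell types, whose part in the lipid results was not tested. Peripheral myelin markers summed to 492, 344 and 2057 CPM in control mice and 1749, 7354 and 504 CPM in mutant mice, with 10 of 12 markers at 1 CPM or more in every library, none at 0 throughout, and 4 of 11 tested called higher. Markers of the Schwann lineage, the glia that make peripheral myelin, summed to 271, 178 and 846 CPM in control mice and 599, 1387 and 407 CPM in mutant mice, and 5 of the 10 were called higher (Erbb3, Gfra3, Cdh19, Egr2 and Ngfr), with log2 fold changes from 1.35 for Ngfr to 3.31 for Erbb3. Oligodendrocyte markers summed to 610, 488 and 853 CPM against 990, 1170 and 547 CPM, and Opalin, one of the 9, was at 0 in 5 of the 6 libraries. None of the 8 tested oligodendrocyte markers and none of the 7 astrocyte markers passed the edgeR test, and 1 and 0 of them were higher at an unadjusted p-value under 0.05. Astrocytes are a further source of cholesterol, and the 7 astrocyte markers summed to 2194, 1926 and 2498 CPM in control mice and 3218, 3135 and 1691 CPM in mutant mice.

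Skeletal muscle markers summed to between 19.9 and 29.2 CPM in control mice and between 128 and 678 CPM in mutant mice, and 9 of the 10 tested were called higher. Their log2 fold changes were between 2.78 and 5.30. Fibroblast markers summed to between 298 and 1133 CPM in control mice and between 1930 and 3065 CPM in mutant mice, with 5 of 8 called higher. Of all tested genes, 8.62% were called higher. Markers of sensory neurons of the dorsal root ganglion (DRG) summed to 216, 157 and 172 CPM in control mice and 369, 990 and 926 CPM in mutant mice, and 9 of the 10 were called higher. Endothelial markers summed to between 155 and 265 CPM in control mice and between 272 and 376 CPM in mutant mice, with 3 of 7 called higher. Central neuron markers summed to between 1536 and 1934 CPM in control mice and between 1365 and 1490 CPM in mutant mice, with 2 of 8 called lower. Fat cells express many of the same enzymes, and the fat cell markers Adipoq, Plin1, Cidec, Lep, Retn and Cfd did not exceed 0.402 CPM in any library. Others of the 12 were higher, with Ucp1 at up to 0.688 CPM, Cidea at 2.69 to 5.09 CPM and Lipe at 6.69 to 12.1 CPM. Neither Cidea nor Lipe passed the test. Fabp4, which endothelial cells also express, rose from 0.344, 0.573 and 0.172 CPM to 8.56, 4.86 and 0.848 CPM (log2 fold change 3.69 ± 0.82 SE, adjusted p = 0.0250), and Plin4 was at 0.516, 0.631 and 0.229 CPM and 1.61, 1.31 and 0.848 CPM without passing the test (log2 fold change 1.44 ± 0.46 SE, adjusted p = 0.0650). The 12 adipocyte markers summed to between 28.4 and 49.1 CPM in control mice and between 36.4 and 42.4 CPM in mutant mice, with Pnpla2 the most abundant of them. Proliferation markers summed to 77.1, 48.5 and 97.6 CPM in control mice and 131, 156 and 132 CPM in mutant mice, with 2 of 6 called higher. Macrophage and microglia markers summed to between 107 and 149 CPM in control mice and between 159 and 186 CPM in mutant mice, with 1 of 10 called higher.

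Of 63 further genes of the same pathways, 60 were tested, 8 rose and 3 fell, against 8.62% and 6.01% of all tested genes, and their median log2 fold change was 0.09. Among 20 tested sterol genes, 5 rose and 1 fell, and among 21 fatty acid and 19 sphingolipid genes, 2 and 1 rose and 1 fell in each. Stard4, a carrier of cholesterol within cells, rose from 21.8, 23.6 and 28.9 CPM to 55.1, 58.5 and 36.7 CPM (log2 fold change 1.02 ± 0.19 SE, adjusted p = 0.0153). It is a known SREBP target, and its genotypes did not overlap. Thrsp, a lipogenic factor, was low, at 0.172, 0.115 and 0.686 CPM in control mice, 2 of them at or under the floor, and 2.28, 1.80 and 0.901 CPM in mutant mice (log2 fold change 2.33 ± 0.63 SE, adjusted p = 0.0419).

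Soat1, which esterifies cholesterol and was named after its value was seen, rose from 20.4, 20.8 and 20.1 CPM in control mice to 33.1, 32.02 and 27.8 CPM in mutant mice (log2 fold change 0.60 ± 0.11 SE, adjusted p = 0.0146). The 3 genes that fell, named on the same basis, were Ggps1, which directs isoprenoids to protein prenylation, Elovl4, which elongates ultra-long fatty acids, and Ugcg, which makes glucosylceramide. Their log2 fold changes were -0.42, -0.40 and -0.39, with adjusted p-values of 0.0190, 0.0315 and 0.0202. Ggps1 uses the same farnesyl substrate as Fdft1, and the pair changed in opposite directions. Without control mouse 2, 0 of the 60 other genes passed in either direction, and 13 were higher and 3 lower at an unadjusted p-value under 0.05, against 13.1% and 10.1% of all genes.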

How the data were processed

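P3 sciatic nerve RNA of 6 mice was sequenced, 3 per genotype. The authors deposited raw counts, the whole number of reads assigned to each gene, with no normalization. The submitters' processing notes name build mm10, and the aligner, counter and use of strand are not given in the sources used here. Genotypes were compared in edgeR 4.0.16 (R 4.3.3) by a quasi-likelihood fit of all 6 libraries without a block, after filterByExpr and TMM scaling, with Benjamini-Hochberg adjustment over 17099 genes. The standard error was derived from the F statistic. The biological coefficient of variation was 16.6%. The script was tested on simulated data, where DESeq2 called more unchanged genes than its nominal rate, so it was kept as an alternative only. Alternatives were DESeq2 1.42.0, limma 3.58.1 voom, other scalings and filters, a replicate block and leaving out mice. Every pair of libraries differed by more than counting noise (chi-square over its degrees of freedom 8.86 to 53.4). The members and lists were chosen with earlier results of these data known. A gene was described in full if it passed the test, if its genotypes did not overlap at an absolute log2 fold change above 0.5, if it was among the 3 with the widest spread among mutants, or if it was a regulator. Other pathway genes were named if they passed with an absolute log2 fold change above 1. Some genes that met these rules are not reported here. Overlaps with other genes follow GENCODE M21, and 9 of the 33 genes have a transcript at least 95% identical over 200 bases to another gene.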

Additional observations from a re-analysis of the deposited data

How the results depend on the processing

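Fold changes kept their sign under the 14 alternatives for 31 of the 33 genes. The exceptions were Scap, at 0.001 (log2) with 10 counts required in every library, and between -0.061 and 0.029 over the fits without 1 mouse, and Insig1, between -0.014 and 0.32 over those fits and at -0.025 without control mouse 3 and mutant mouse 2 together. The count of 16 higher genes became 18 by DESeq2, 15 by limma voom, 16 with RLE or upper-quartile scaling, 19 without a filter (6.08% of all genes higher), 6 with a replicate block (2.53%) and 4 with a log2 fold change above 1, and it ranged from 0 to 18 without 1 mouse, the lowest without control mouse 2. Without control mouse 3 and mutant mouse 2 together it was 7. The number of members lower was 0 in every setting, also at an unadjusted p under 0.05. The other pathway genes counted 8 higher and 3 lower, with 2 and 0 under the replicate block (13 and 4 unadjusted), 3 and 0 without control mouse 3 and mutant mouse 2 together, and from 0 to 13 higher and 0 to 3 lower without 1 mouse. The decrease of Dok6 was -1.05 (log2) with an adjusted p of 0.0592 in the fit without both mice. Equal replicate numbers did not pair the mice, with correlations of deviations of -0.01, -0.17 and -0.24 for numbers 1, 2 and 3. With 3 mice per genotype, an exact permutation test of 1 gene cannot go below a 2-sided p of 0.1.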

Other observations

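Genes that move cholesterol out of cells, named after their values were seen, did not pass the test. Abca1, a transporter that loads cholesterol onto lipoprotein, was at 235, 152 and 135 CPM in control mice and 147, 132 and 135 CPM in mutant mice, with a log2 fold change of -0.33 ± 0.18 SE and an adjusted p-value of 0.238. Abcg1, a second efflux transporter, had a log2 fold change of -0.35 ± 0.15 SE and an adjusted p-value of 0.132. Acly, which supplies acetyl-CoA for both sterol and fatty acid synthesis, was at 314, 271 and 315 CPM against 329, 354 and 357 CPM, with a log2 fold change of 0.21 ± 0.09 SE and an adjusted p-value of 0.139. Elovl3 was at 0 counts in every library.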
